A study of Mus musculus with 12 samples.

Results

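The G1 cell cycle machinery of the palate was followed through 8 genes out of the 24391 counted in each library. They were listed by symbol and comprise the kinases Cdk4 and Cdk6, the D cyclins Ccnd1, Ccnd2 and Ccnd3, and the kinase inhibitors Cdkn1b, Cdkn1c and Cdkn2c. Cdk6 was chosen by its measured rise in mutants over controls, so its levels by genotype are a description with no test. The other genes and the lists used below were also chosen with earlier results of these data known. Their tests and counts of calls are therefore not independent of that choice. RNA came from the anterior hard palate of C57BL/6 mouse embryos. Mutants carried Shox2Cre and R26RFgf8 at embryonic day 14.5 (E14.5) or E16.5, and controls of each age were labelled wild type. There were 12 samples, 3 in each of the 4 groups. Whole tissue was sequenced, so the libraries also hold RNA from palate cells in which Cre from the Shox2 locus is not active. The labels do not state whether a sample was 1 embryo or several, so each p-value reflects the spread between samples, which may in part be technical.

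Cells pass from G1 into S phase when a D cyclin binds Cdk4 or Cdk6 and the complex phosphorylates the retinoblastoma protein, which frees E2F factors to switch on replication genes. Growth factors such as the FGFs are known to raise D cyclin levels, while the INK4 and Cip/Kip inhibitors hold the kinases back. In the skeleton, Cdk6 is known from mouse cell culture to restrain osteoblast differentiation, and mice that lack Cdkn1c are born with cleft palate and skeletal defects.

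Total counts were 76417891 to 125996587 per library, and all 8 genes passed the low-count filter in every comparison. The lowest count of any of them was 115. Fgf8 checked the labels, with 10.8 ± 0.275 CPM (counts scaled to a common library total) in E14.5 mutants and 0.316 ± 0.0938 CPM in E14.5 controls (SD, n = 3 each). At E16.5 Fgf8 had 16.1 ± 1.93 CPM in mutants and 0.383 ± 0.110 CPM in controls. All 6 markers of palate mesenchyme were detected, with summed levels of 1842 to 2194 CPM in E14.5 mutants and 905 to 1015 CPM in E14.5 controls. Prrx1 alone supplied 1074 to 1329 CPM of the mutant sums and 203 to 264 CPM of the control sums. Each of the other markers differed by less in CPM, and Twist1 had 255 to 289 CPM in mutants and 247 to 262 CPM in controls. Libraries 1 and 3 of the E16.5 mutants stood apart through nervous tissue RNA. The summed level of 8 retinal markers was 158, 17.2 and 92.5 CPM in E16.5 mutant libraries 1, 2 and 3, against 36.6 to 40.2 CPM in E16.5 controls. In E16.5 mutant library 2, 3 of the 8 retinal markers were at 0 and the retinal gene Fgf15 had 0.347 CPM. The 6 neuronal markers summed to 194, 30.3 and 108 CPM in the same mutant libraries, against 19.2 to 23.0 CPM in E16.5 controls. Each E16.5 fold change was therefore also computed without mutant libraries 1 and 3, in a fit that leaves 1 mutant library and assumes that it varies like the other groups. Xist, the RNA of the inactive X chromosome, lay at 441 to 521 CPM in E14.5 mutants and 709 to 861 CPM in E14.5 controls, but at 888 to 914 CPM in E16.5 mutants and 341 to 481 CPM in E16.5 controls.

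Both kinases were higher in mutants at both ages, and no mutant library overlapped a control of its age. For Cdk6 this rests on the values by which it was chosen. The share of all genes whose mutant and control libraries separate in this way was not counted, here or for the genes below. Cdk6 had 10.7, 11.1 and 14.8 CPM in the E14.5 mutant libraries, against 1.79, 1.52 and 1.35 CPM in the E14.5 controls. At E16.5 Cdk6 had 16.7, 34.4 and 23.5 CPM in mutants, against 9.36, 8.31 and 12.1 CPM in controls. The mutant levels were thus 7.84-fold the control level at E14.5 (log2 fold change 2.97, SE 0.16) and 2.53-fold at E16.5 (log2 fold change 1.34, SE 0.24). E16.5 mutants were the most variable group for Cdk6, and library 2, which had the least retinal RNA of the 3, was the highest. Without E16.5 mutant libraries 1 and 3, the log2 fold change of Cdk6 at E16.5 was 1.82. Annotated transcripts of 4 other genes match Cdk6 at 90% identity or more over 202 to 388 bases, and reads from those stretches are uncertain. The E14.5 mutants overlapped the E16.5 controls in Cdk6, whereas the E14.5 controls lay below every other library. Of the 17550 genes past the filter on all 12 samples, 981 had their 3 lowest libraries in the E14.5 controls, Cdk4 and Cdk6 among them. For Cdk6 the gap below the other libraries includes the mutant-control difference by which it was chosen. Its place here is therefore not independent of that choice. Cdk6 was 1 of 4 genes for which that gap exceeded 4-fold, a limit set after its values were seen. The others were the beta-catenin gene Ctnnb1, the transcription factor gene Foxp1 and 1700123I01Rik.

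**Figure D1:**
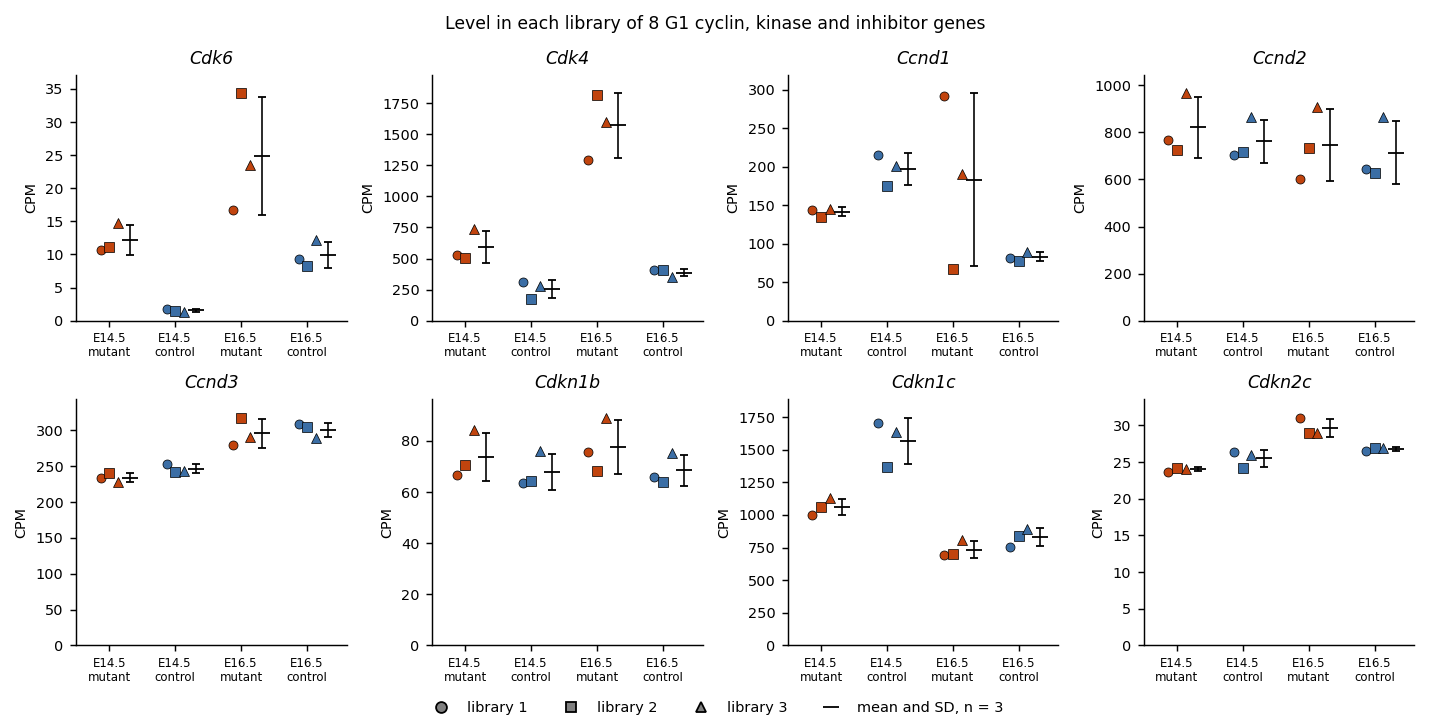
Level of each of the 8 genes in CPM (vertical axes, each from 0) in every library of the 4 groups, with the mean and SD of n = 3 beside the points. Cdk6 and Cdk4 lie higher in mutants than in controls at both ages, E16.5 mutant library 2 is the highest library for both kinases and the lowest E16.5 library for Ccnd1 at 66.8 CPM, and Ccnd2 and Cdkn1b peak in library 3 of each group.

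Cdk4, the kinase partner of the D cyclins that is the more abundant of the pair here, rose in mutants at both ages. At E14.5 it had 529, 508 and 738 CPM in mutants, against 314, 176 and 278 CPM in controls. The means were 591 ± 127 CPM in E14.5 mutants and 256 ± 71.7 CPM in E14.5 controls, a log2 fold change of 1.21 (SE 0.20, adjusted p = 0.00557, edgeR quasi-likelihood test with Benjamini-Hochberg adjustment). The highest control, library 1, stayed below the lowest mutant. At E16.5 Cdk4 had 1297, 1819 and 1601 CPM in mutants, against 404, 405 and 351 CPM in controls. The log2 fold change was 2.04 (SE 0.12, edgeR adjusted p = 1.25e-05), or 4.12-fold, and it was 2.25 without mutant libraries 1 and 3. In the authors' deposited table, the log2 fold change of Cdk4 was 0.64 at E14.5 (adjusted p = 0.00107) and 1.997 at E16.5 (adjusted p = 7.7e-61). A DESeq2 fit of the raw counts gave 1.20 at E14.5 (DESeq2 adjusted p = 0.00100) and 2.05 at E16.5. The reason for the smaller deposited value at E14.5 was not tested. Cdk4 overlaps Tspan31, a tetraspanin gene on the opposite strand, and whether the counting used strand is not given in the sources used here. Tspan31 itself had 107 ± 2.14 CPM in E14.5 mutants and 109 ± 0.861 CPM in E14.5 controls, then 103 ± 1.06 CPM in E16.5 mutants and 101 ± 2.43 CPM in E16.5 controls.

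The promoters of the kinases are shown because both genes were higher in mutants and because their promoters share a motif. RefSeq promoter windows of 300 bases (250 before the start and 50 after it, build GRCm38.p6) were matched for 5 of the 8 genes, as 7 windows. The capitals mark CACGTG, the E-box form known to be bound by Myc with Max, which reads the same on both strands. The windows are chr10:127063285-127063584 for Cdk4 and chr5:3343643-3343942 for Cdk6, both on the plus strand and written 5′ to 3′.
Cdk4: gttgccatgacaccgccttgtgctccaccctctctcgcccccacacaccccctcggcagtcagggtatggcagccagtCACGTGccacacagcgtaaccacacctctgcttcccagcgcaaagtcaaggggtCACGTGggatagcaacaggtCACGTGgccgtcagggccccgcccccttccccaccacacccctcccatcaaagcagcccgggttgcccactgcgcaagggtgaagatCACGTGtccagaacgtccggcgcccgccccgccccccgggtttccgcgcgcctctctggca
Cdk6: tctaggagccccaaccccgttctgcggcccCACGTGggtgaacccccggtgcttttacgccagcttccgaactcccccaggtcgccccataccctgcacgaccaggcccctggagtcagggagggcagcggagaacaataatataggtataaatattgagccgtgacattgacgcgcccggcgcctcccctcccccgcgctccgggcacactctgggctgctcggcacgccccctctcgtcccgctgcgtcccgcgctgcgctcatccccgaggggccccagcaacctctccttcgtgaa
The Cdk4 window held 4 matches, which began 172, 118, 98 and 11 bases before the start. The Cdk6 window held 1, beginning 220 bases before the start, and a second start of Cdkn2c held 1 more. Of 32851 mouse promoter windows of this length, 7.15% held the motif at least once and 8 windows held it 4 or more times. That limit equals the Cdk4 count, so the Cdk4 window is among the 8 by its own count. The E2F forms TTTCGCGC and TTTGGCGC, searched on both strands, were in none of the 7 windows and in 0.813% of all windows. The same windows held no AP-1 form (TGAGTCA or its complement TGACTCA, in 5.2% of all windows), no CRE form (TGACGTCA, in 1.79%) and no ETS form (CCGGAAGT, in 3.89%). These letters describe the windows and say nothing of binding in these samples.

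Ccnd1, the D cyclin most often linked to growth factor signals, was lower in mutants at E14.5. It had 144, 135 and 145 CPM in the E14.5 mutants, against 215, 174 and 201 CPM in the E14.5 controls. The groups did not overlap, and the mutant libraries were tightly grouped. The log2 fold change was -0.48 (SE 0.08, edgeR adjusted p = 0.00544). In a fit of all 12 samples the same difference had an edgeR adjusted p of 0.480. At E16.5 Ccnd1 had 292, 66.8 and 191 CPM in mutants, against 81.0, 78.1 and 89.4 CPM in controls. Mutant libraries 1 and 3 lay above all E16.5 controls and library 2 below all of them, in the order of their retinal marker sums. Their neuronal marker sums ran in the same order. Epithelial marker sums ran in the reverse order, at 4425, 7504 and 6279 CPM in mutant libraries 1, 2 and 3. The part of these tissues in the Ccnd1 values was not tested. The log2 fold change at E16.5 was 1.18 (SE 0.42, edgeR adjusted p = 0.0702). It was -0.29 without mutant libraries 1 and 3, which leaves library 2 alone, and 1.57 without mutant library 2 (edgeR adjusted p = 0.000112). Ccnd1 overlaps Oraov1 on the opposite strand, which had 24.3 ± 3.01 CPM in E14.5 mutants and 23.7 ± 2.84 CPM in E14.5 controls.

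Ccnd2 and Ccnd3, the other D cyclins, did not pass the test between genotypes at either age. Ccnd2 had 768, 727 and 968 CPM in E14.5 mutants, against 704, 715 and 865 CPM in E14.5 controls. At E16.5 it had 603, 734 and 907 CPM in mutants, against 644, 629 and 867 CPM in controls. The groups overlapped at both ages, and library 3 was the highest of each group. The 95% interval of the mutant-to-control fold of Ccnd2 was 0.906 to 1.28 at E14.5, and at E16.5 it was 0.824 to 1.38. Ccnd3 averaged 234 ± 6.25 CPM in E14.5 mutants and 246 ± 5.91 CPM in E14.5 controls, then 296 ± 19.9 CPM in E16.5 mutants and 301 ± 9.88 CPM in E16.5 controls. The interval for Ccnd3 was 0.874 to 1.03 at E14.5, and at E16.5 it was 0.892 to 1.12. Ccnd3 counts are uncertain, since the gene overlaps Bysl on the opposite strand and has a processed pseudogene 96.3% identical over 881 bases.

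Levels per kilobase of exon allow the D cyclins to be set against each other, with exon lengths from GENCODE vM21, which was not the authors' annotation. Summed D cyclin levels were 256 ± 17.9 CPM per kb in E14.5 mutants and 267 ± 15.1 in E14.5 controls, then 281 ± 23.9 in E16.5 mutants and 251 ± 17.6 in E16.5 controls. Ccnd1 made up 15.5, 14.9 and 14.1% of that sum in E14.5 mutants, against 21.6, 18.5 and 19.1% in E14.5 controls. At E16.5 Ccnd1 made up 27.7, 6.95 and 16.7% in mutants, against 8.88, 8.74 and 8.81% in controls. The E16.5 controls were nearly identical in this share, and the E16.5 mutants fell on either side of them. Ccnd2 and Ccnd3 supplied most of the sum in every library.

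**Figure D2:**
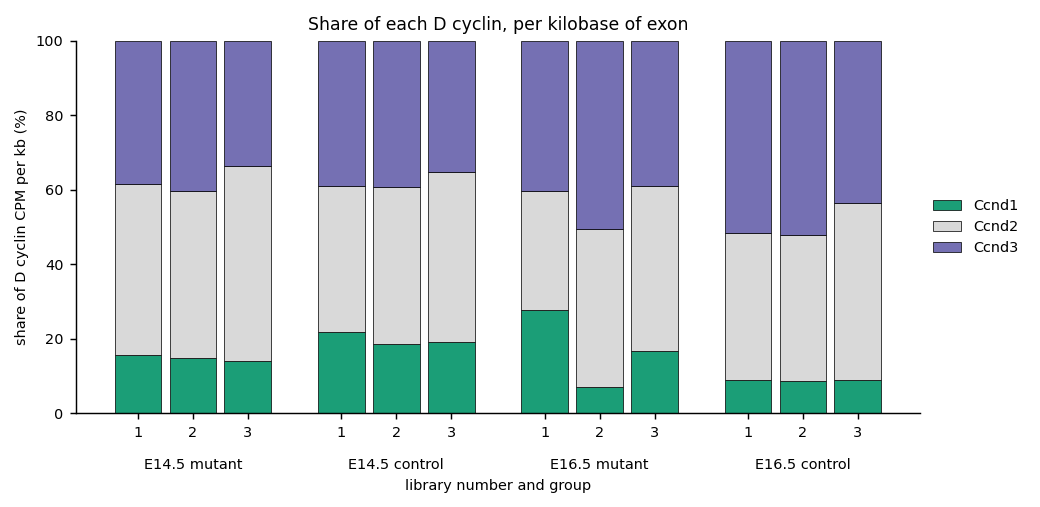
Share of Ccnd1, Ccnd2 and Ccnd3 in the summed D cyclin level (CPM per kb of exon, in percent, vertical axis) in each of the 12 libraries (horizontal axis, by group). The Ccnd1 share spans 6.95 to 27.7% in E16.5 mutants and 8.74 to 8.88% in E16.5 controls.

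Cdkn1c, the Cip/Kip inhibitor encoded by an imprinted gene, was lower in mutants at E14.5. It had 1002, 1061 and 1127 CPM in E14.5 mutants, against 1707, 1370 and 1633 CPM in E14.5 controls. All mutant libraries lay below all controls. The log2 fold change was -0.56 (SE 0.09, edgeR adjusted p = 0.00344). At E16.5 the groups overlapped, with 692, 701 and 806 CPM in mutants, against 757, 836 and 892 CPM in controls. The log2 fold change was -0.15 (SE 0.09, edgeR adjusted p = 0.234), and with the replicate number as a block it was -0.15 (edgeR adjusted p = 0.0384). Osteoblast markers moved with Cdkn1c at E14.5: all 6 were called lower, beside 4.57% of all genes tested. Their sums were 839 to 873 CPM in mutants and 2492 to 2978 CPM in controls. All 6 were called lower at E16.5 too, beside 15.7% of all genes tested. The part of these markers in the Cdkn1c and Cdk6 results was not tested. In such bulk samples, fewer cells of a type and less RNA per cell cannot be told apart.

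Cdkn1b, a second Cip/Kip inhibitor whose protein is known to build up as cells leave the cycle, had 66.5, 70.6 and 84.3 CPM in E14.5 mutants, against 63.4, 64.2 and 76.1 CPM in E14.5 controls. At E16.5 it had 75.5, 68.1 and 89.1 CPM in mutants, against 65.9, 64.1 and 75.3 CPM in controls. The groups overlapped at both ages, with library 3 the highest of each group. The log2 fold change was 0.12 at E14.5 (edgeR adjusted p = 0.505) and 0.21 at E16.5 (edgeR adjusted p = 0.194). With the replicate number as a block, the E16.5 value was 0.20 (edgeR adjusted p = 0.0211), and it was 0.02 without mutant libraries 1 and 3. Cdkn2c, an INK4 inhibitor that binds Cdk4 and Cdk6 directly, lay within a narrow range. It had 23.7, 24.2 and 24.1 CPM in E14.5 mutants and 26.4, 24.2 and 25.9 CPM in E14.5 controls, then 31.1, 29.0 and 29.0 CPM in E16.5 mutants and 26.5, 26.9 and 27.0 CPM in E16.5 controls. The genotypes did not overlap at either age, although library 2 of the E14.5 mutants and of the E14.5 controls differed by less than the rounding, with mutants on the low side at E14.5 and on the high side at E16.5, but neither difference passed the test (edgeR adjusted p = 0.474 at E14.5 and 0.108 at E16.5).

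**Figure D3:**
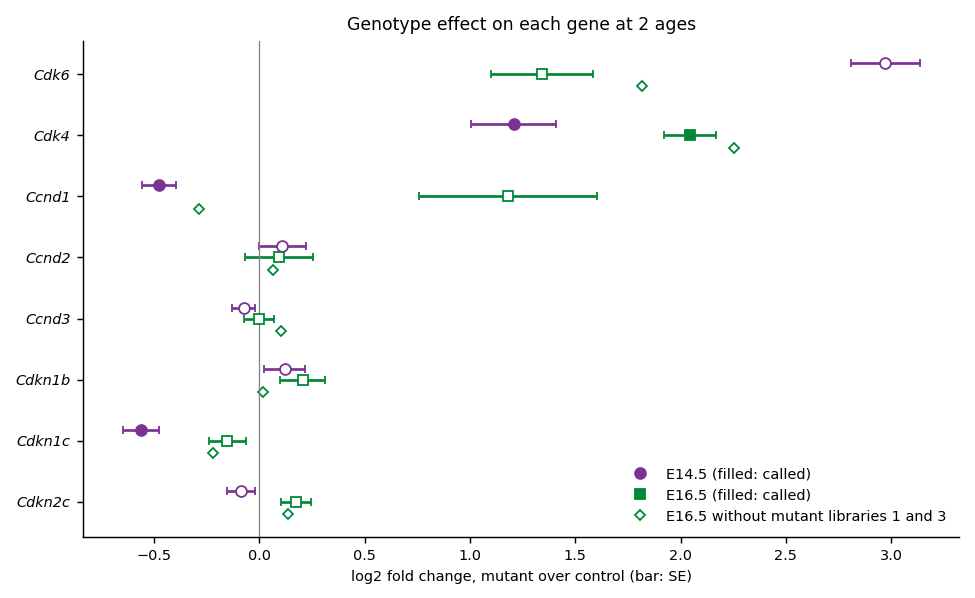
Log2 fold change of mutants over controls (horizontal axis, bars show the SE) for each gene at E14.5 (circles) and E16.5 (squares), filled where the gene was called and open where it was not called or, for Cdk6, not tested. Diamonds give the E16.5 value without mutant libraries 1 and 3, which is -0.29 for Ccnd1 and 2.25 for Cdk4.

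Among the 7 genes tested between genotypes at E14.5, 1 was called higher and 2 lower, where 2.95% of the 16650 genes tested were higher and 4.57% lower. At E16.5 Cdk4 alone of the 7 was called, higher, where 12.2% of 17169 genes were higher and 15.7% lower, and with the replicate block 3 of 7 were called. The E16.5 effect minus the E14.5 effect was called for Ccnd1 alone among the 7, higher, where 9.97% of 17550 genes were higher and 12.4% lower. That difference was 1.62 for Ccnd1 on the log2 scale (SE 0.49, edgeR adjusted p = 0.0303) and 0.19 without E16.5 mutant libraries 1 and 3. It was not called under 12 of 22 alternatives, limma-voom among them (1.38, adjusted p = 0.0771). For Cdk4 it was 0.82 (SE 0.28, edgeR adjusted p = 0.0533).

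Between E14.5 and E16.5, Cdk4 rose in both genotypes, by 1.41 in mutants (edgeR adjusted p = 6.83e-05) and by 0.60 in controls (edgeR adjusted p = 0.0173) on the log2 scale. The rise in controls was 0.39 without E14.5 control library 2 (edgeR adjusted p = 0.0583). Cdkn1c fell in both, with log2 changes of -0.54 in mutants (edgeR adjusted p = 0.000362) and -0.92 in controls (edgeR adjusted p = 1.67e-06). Ccnd3 rose by 0.34 in mutants (edgeR adjusted p = 0.000339) and by 0.29 in controls (edgeR adjusted p = 0.00073). Cdkn2c rose in mutants by 0.31 (edgeR adjusted p = 0.000816), and its change in controls was 0.07 (edgeR adjusted p = 0.320). Ccnd1 fell in controls by 1.25 (edgeR adjusted p = 0.00623), and its change from replicates 1 and 2 alone was -1.29 (edgeR adjusted p = 0.0764). In mutants its change was 0.37 (edgeR adjusted p = 0.383). It was -1.06 without E16.5 mutant libraries 1 and 3, in a fit that leaves 1 E16.5 mutant library. In mutants 3 of the 7 genes rose and 1 fell, where 27.2% of 17550 genes rose and 24.4% fell. In controls Cdk4 and Ccnd3 rose and Ccnd1 and Cdkn1c fell, where 34.3% of genes rose and 32.1% fell. Cdk6 was 2.03-fold higher in E16.5 than in E14.5 mutants and 6.38-fold higher in E16.5 than in E14.5 controls, given without a test because the E14.5 samples also enter the difference by which Cdk6 was chosen.

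By group means per kilobase of exon, Cdkn1c and Cdk4 were the most abundant of the 8 transcripts in all 4 groups and Cdk6 the least. Cdkn1c averaged 548 CPM per kb in E14.5 mutants and 808 in E14.5 controls, then 378 in E16.5 mutants and 427 in E16.5 controls. Cdk4 averaged 288 in E14.5 mutants and 125 in E14.5 controls, then 766 in E16.5 mutants and 188 in E16.5 controls. Cdk4 exceeded Cdkn1c in the E16.5 mutants only, among the 4 groups. In E14.5 controls, Cdk4, Ccnd2 and Ccnd3 had 125 ± 34.9, 113 ± 13.4 and 101 ± 2.42 CPM per kb. Every Ccnd2 value there lay above every Ccnd3 value, and these differences were not tested. Cdk6 averaged 1.06 in E14.5 mutants and 0.135 in E14.5 controls, then 2.16 in E16.5 mutants and 0.862 in E16.5 controls. Its share of the summed Cdk4 and Cdk6 level was 0.368% in E14.5 mutants and 0.114% in E14.5 controls, but 0.275% in E16.5 mutants and 0.462% in E16.5 controls.

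Other genes of the pathway were examined from lists that name its steps, chosen with earlier results of these data known. Of 13 genes of the Rb family, E2F and DP factors, edgeR called 0 at E14.5 (0 also at an unadjusted p under 0.05, and 0 called by DESeq2 and by limma-voom). At E16.5, 3 of the 13 were higher and 2 lower, beside 12.2% and 15.7% of all genes tested. Rb1, the retinoblastoma protein gene, had 39.0 ± 3.14 CPM in E16.5 mutants and 58.1 ± 8.18 CPM in E16.5 controls (log2 fold change -0.55, edgeR adjusted p = 0.00581). E2f3, an activator E2F, had 51.2 ± 6.30 CPM in E16.5 mutants and 38.4 ± 4.39 CPM in E16.5 controls. Without mutant libraries 1 and 3, 2 of these 13 were called, both lower. Of the 4 remaining INK4 and Cip/Kip inhibitors, Cdkn1a was called at E16.5, with 220 ± 35.5 CPM in mutants and 348 ± 26.0 CPM in controls (log2 fold change -0.64, edgeR adjusted p = 0.00371), a call that was not made without mutant libraries 1 and 3 (edgeR adjusted p = 0.0955).

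Of 11 genes for cyclin E, Cdk2 and their control, 2 rose at E14.5 and 5 at E16.5, beside 2.95% and 12.2% of all genes tested, and every called gene was higher. Myc, whose protein drives growth and G1 genes, had 88.5 ± 2.52 CPM in E14.5 mutants and 24.0 ± 6.80 CPM in E14.5 controls (log2 fold change 1.89, edgeR adjusted p = 0.000108). At E16.5 Myc had 108 ± 24.8 CPM in mutants and 38.8 ± 0.924 CPM in controls (log2 fold change 1.49, edgeR adjusted p = 0.000149). The cyclin E gene Ccne2 rose at E14.5, with 16.7 ± 1.46 CPM in mutants and 11.5 ± 0.608 CPM in controls. The list's median log2 fold change was 0.09 at E14.5 and 0.29 at E16.5, beside 0.01 over all genes tested at each age.

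Of 16 S phase genes, 3 rose at E14.5 and 12 at E16.5, beside 2.95% and 12.2% of all genes tested, and the rest were not called. Rrm2, a subunit of ribonucleotide reductase, had 156 ± 4.47 CPM in E14.5 mutants and 123 ± 3.46 CPM in E14.5 controls, then 108 ± 3.83 CPM in E16.5 mutants and 83.7 ± 4.23 CPM in E16.5 controls. Pcna, the replication clamp, had 167 ± 9.13 CPM in E14.5 mutants and 134 ± 7.42 CPM in E14.5 controls. The list's median log2 fold change was 0.15 at the earlier age and 0.30 at the later. Without E16.5 mutant libraries 1 and 3, the list's median at E16.5 was 0.34. Markers of other cells moved at E16.5 beside these lists and the kinases. Cartilage markers summed to 403 to 625 CPM in mutants and 101 to 121 CPM in controls (4 of 6 higher and 1 lower), and endothelial markers to 292 to 372 CPM in mutants and 208 to 224 CPM in controls (6 of 6 higher). Palate mesenchyme markers summed to 1633 to 2548 CPM in E16.5 mutants and 781 to 920 CPM in E16.5 controls (4 of 6 higher). Prrx1 alone supplied 1102 to 1961 CPM of these mutant sums and 408 to 501 CPM of the control sums. At E14.5, 4 of 6 cartilage markers were higher and 1 lower, 4 of 6 endothelial markers were lower and 3 of 6 palate mesenchyme markers were higher. Of all genes tested, 2.95% were higher and 4.57% lower at E14.5, and 12.2% were higher and 15.7% lower at E16.5. The part of these cell types in the results was not tested. Of 12 mitosis genes, 1 rose at E14.5, the checkpoint kinase gene Bub1, and 3 at E16.5, Cenpa, Birc5 and Aurkb. Over all genes tested, 2.95% were higher at the earlier age and 12.2% at the later. Of 8 FGF response genes, which report FGF signalling, 6 rose at the earlier age and 5 at the later one, beside 2.95% and 12.2% of all genes. The feedback inhibitor gene Spry4 had 64.1 ± 14.8 CPM in E16.5 mutants and 8.26 ± 1.88 CPM in E16.5 controls (log2 fold change 2.98, edgeR adjusted p = 2.41e-05).

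**Figure D4:**
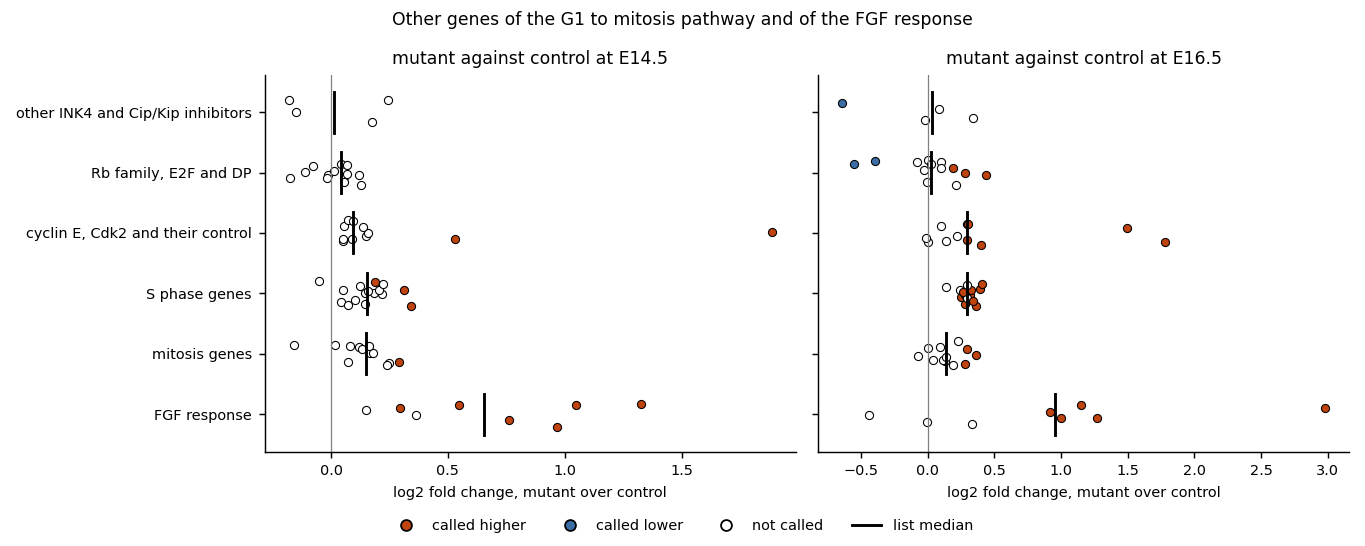
Log2 fold change of mutants over controls (horizontal axes) for each gene of 6 lists, 1 point per gene, at E14.5 (left) and E16.5 (right), with a bar at the list median. The median of the FGF response list was 0.65 at the earlier age and 0.96 at the later, and that of the S phase list was 0.15 and 0.30.

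The genes whose levels followed Cdk6 most closely were found by Pearson correlation of log2 CPM over the 12 samples, among 12842 genes. The samples fall into 4 groups, so the coefficients mostly describe group means and carry no p. Sox5, a transcription factor gene of cartilage and neural crest, came first (r = 0.965), with 22.6 ± 2.57 CPM in E14.5 mutants and 3.49 ± 0.666 CPM in E14.5 controls, then 39.9 ± 7.47 CPM in E16.5 mutants and 11.8 ± 1.36 CPM in E16.5 controls. Trp53, the tumour suppressor gene, followed (r = 0.963), with 148 ± 5.17 CPM in E14.5 mutants and 35.8 ± 4.40 CPM in E14.5 controls. Zcchc5 (r = 0.959), Pam (r = 0.952) and the TGF-beta receptor gene Tgfbr2 (r = 0.939) completed the first 5. Tgfbr2 had 152 ± 10.2 CPM in E14.5 mutants and 34.9 ± 6.36 CPM in E14.5 controls. At E16.5 its levels were alike, at 202 ± 9.64 CPM in mutants and 198 ± 10.4 CPM in controls, unlike those of Cdk6. Of the other 7 genes, Cdk4 stood nearest, at rank 56 (r = 0.852), and Cdkn1c stood at the opposite end, at rank 12740 (r = -0.870).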

How the data were processed

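The authors deposited raw counts per gene for each sample. Per the submitters' processing notes, HISAT2, featureCounts, DESeq2 and the build mm9 were used, with versions, annotation and strand setting not given in the sources used here. The authors' deposited comparison tables give log2 fold changes and adjusted p-values, per the file headers. A further 24 deposited columns of normalised or raw values were not used.

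The 8 genes, the pathway lists and the marker lists were chosen with earlier results of these data known. The genes named from a list are up to 4 called members with the largest absolute change per age, or up to 2 where none was called. Those most like Cdk6 are the first 5 by Pearson r (mean log2 CPM of at least 1, prior count 2). The count model was edgeR 4.0.16 in R 4.3.3 (TMM factors, filterByExpr, quasi-likelihood test, Benjamini-Hochberg adjustment over all genes, call under 0.05), after a test on simulated data. Genotypes were compared within each age on 6 samples. Changes with age and the difference between genotype effects came from 1 fit of 12 samples. Cdk6 was planned to be tested for age in controls, but that value is given without a test. CPM are scaled by TMM factors. Near-identical copies are transcripts of other genes at least 90% identical over at least 200 bases, by blastn.

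Deviations from the group means of samples sharing a number correlated at 0.105, 0.161 and 0.222 between the E16.5 groups over 17550 genes. The numbers may therefore mark pairs there. Samples numbered 3 also correlated across ages, at 0.159 in mutants and 0.158 in controls. Across ages, numbers 1 and 2 gave -0.0239 and 0.0106 in mutants and 0.0618 and 0.0981 in controls. Number 3 may thus mark a set shared by the 4 groups. Whether the numbers mark pairs or such a set was not tested. The main fits did not use the numbers, and the replicate block was run as an alternative that does. The alternatives were DESeq2 1.42.0 and its size factors, upper-quartile factors, limma-voom (limma 3.58.1), no filter, at least 5 CPM in 3 samples, a replicate block, replicate 3 as a term, fits of replicates 1 and 2 only, a fit of all 12 samples, each library left out, and E16.5 mutant libraries 1 and 3 left out.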

Additional observations from a re-analysis of the deposited data

Results flagged for a closer look

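The genotype effect on Ccnd1 differed between the ages by a test of the difference itself, the E16.5 effect minus the E14.5 effect being 1.62 on the log2 scale (SE 0.49, edgeR adjusted p = 0.0303). Ccnd1 had 292, 66.8 and 191 CPM in E16.5 mutants and 81.0, 78.1 and 89.4 CPM in E16.5 controls, and was lower in all 3 E14.5 mutants than in any E14.5 control. Without E16.5 mutant libraries 1 and 3, which held the most retinal RNA, the difference was 0.19, in a fit that leaves 1 E16.5 mutant library. The part of retinal RNA in this difference was not tested. The call was lost under 12 of 22 alternatives in all, including limma-voom (1.38, adjusted p = 0.0771), replicates 1 and 2 alone (1.69, edgeR adjusted p = 0.197) and most fits with 1 library left out.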

How the results depend on the processing

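Of 688 values of the 8 genes under the alternatives, 599 kept their direction and, where tested, their side of the threshold. Values of Cdk6 counted as kept if they moved by less than the spread within groups, except for age in controls, where the planned threshold was used. Of the 688 values, 35 changed sign. In 27 of these, all of Ccnd2, Ccnd3 or Cdkn1b, the value moved by no more than its SE, lay between -0.10 and 0.15 and was not called. The other 8 were Ccnd2 at E14.5 without mutant library 3 (-0.026, in a range up to 0.21 with 1 library left out), Ccnd1 (-0.29) and Ccnd3 (0.10) at E16.5 without mutant libraries 1 and 3, the change with age in mutants of Ccnd1 without E16.5 mutant library 1 (-0.11, in a range up to 0.81) and without libraries 1 and 3 (-1.06), of Ccnd2 without E14.5 mutant library 3 (0.031, in a range from -0.26) and of Cdkn1b without libraries 1 and 3 (-0.089), and that of Cdkn2c in controls with upper-quartile factors (-0.00126). The genes called at E14.5 numbered 1252, but 2042 by DESeq2, 3155 with a replicate block, 2938 with a term for the replicates numbered 3, and 526 to 1412 with 1 library left out. At E16.5 they numbered 4793, but 2286 from replicates 1 and 2 alone, 2698 without mutant libraries 1 and 3, and 2781 to 5486 with 1 library left out. Of the 7 tested genes, 1 was called at E16.5, but 3 with a block or with the term for replicate 3, 2 in the fit of 12 samples and 1 to 2 with 1 library left out. For the difference between the genotype effects, 3921 genes were called, but 6055 with a block, 1961 from replicates 1 and 2 alone and 2017 without mutant libraries 1 and 3. Of the 7, 1 was called for that difference, but 4 with upper-quartile factors, DESeq2, a minimum of 5 CPM, a block or the term for replicate 3, 3 with no filter, 0 by limma-voom, from replicates 1 and 2 alone or without mutant libraries 1 and 3, and 0 to 4 with 1 library left out. The added calls were Cdk4 (adjusted p = 0.0420 with the block), Cdkn1c (0.0130) and Cdkn2c (0.0296), all by edgeR. The cause of these changes was not tested. At E14.5, same-numbered deviations correlated at 0.0193, 0.0445 and 0.16, and the block changed no call of the 7 tested genes there. With 3 samples a group, the genotype differences of Ccnd2 and Ccnd3 were not told from 0 under the alternatives run.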

Other observations

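The genes that carry cells through S phase and mitosis fell with age in both genotypes, while Cdk4 rose. Of 16 S phase genes, 15 were lower at E16.5 than at E14.5 in mutants and 15 in controls, beside 24.4% of all genes in mutants and 32.1% in controls, with medians of -0.52 in mutants and -0.60 in controls on the log2 scale. All 12 mitosis genes were lower at E16.5 in each genotype, with medians of -0.48 in mutants and -0.49 in controls. Of 11 genes for cyclin E, Cdk2 and their control, 9 fell in mutants and 7 in controls. The medians over all genes tested were 0.00 in mutants and -0.00 in controls. Trp53 averaged 309 ± 105 CPM in E16.5 mutants and 95.7 ± 2.80 CPM in E16.5 controls.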
